A study of Mus musculus with 2 samples.

Results

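The miRNAs described here are a set known from neurons, read in a culture of vascular smooth muscle: miR-124-3p, both arms of miR-9 (miR-9-5p and miR-9-3p), miR-137-3p and miR-128-3p. They were chosen by their miRBase accessions, and all 5 were found, each as a feature of its own, among the 739 features of the deposited table. The names of the 5 come from the rule that chose them. The samples were cultures of smooth muscle cells from the pulmonary arteries of mice, cells that set the tone of these vessels. There was 1 sample of NOX1-deficient cells and 1 sample of wild-type (WT) cells. NOX1 is a catalytic subunit of the NADPH oxidases, which make superoxide, and the labels give its deficiency without naming an allele. Both samples are labelled as cells of 3 male mice on a C57BL/6 background, at passage 3, kept for 24 hours in medium with 10% fetal bovine serum. The sources used here do not say whether material from the 3 mice was pooled. With 1 array for each genotype, no difference has a replicate check.

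miRNAs are short RNAs that pair with messenger RNAs, mainly through bases 2 to 8 (the seed), and lower their translation and stability. miR-124 is the leading miRNA of neurons, where it holds down genes of other cell types, among them the splicing regulator Ptbp1. miR-9 is made in neural progenitors and neurons, and both of its arms act: miR-9-5p targets the neuronal gene repressor REST and miR-9-3p targets its partner CoREST. miR-137 acts in neural stem cells and at synapses, and miR-128 dampens the excitability of neurons in the mouse brain.

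RefSeq (GRCm38.p6) gave the mature sequences of 4 of the 5 miRNAs by name, which are shown because they define what each feature stands for and which of them share a seed. Capitals mark the seed.
miR-9-5p: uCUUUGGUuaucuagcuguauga
miR-9-3p: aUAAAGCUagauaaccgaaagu
miR-137-3p: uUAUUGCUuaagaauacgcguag
miR-128-3p: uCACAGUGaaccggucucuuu
The 4 seeds differ from one another, so none of these miRNAs form a seed family among themselves. Among the mouse miRNAs of the RefSeq table that were searched, no other held the same letters at bases 2 to 8 as any of the 4. The search, also for letters shifted by a base, left out the miRNAs of 1 chromosome and so did not cover the whole table. The letters of the miR-128-3p seed do occur shifted by a base in other miRNAs. In the sequences that follow, capitals mark those shared letters, which lie at bases 3 to 9 of miR-27a-3p and miR-27b-3p and at bases 1 to 7 of miR-216a-3p.
miR-27a-3p: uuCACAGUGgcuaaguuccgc
miR-27b-3p: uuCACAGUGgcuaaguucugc
miR-216a-3p: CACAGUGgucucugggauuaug
The sources used here do not pair features with these 3 names, so their intensities are not given. The 3 sequences with no value on either array were poor in G and C, at 34.8% in miR-9-5p, 31.8% in miR-9-3p and 34.8% in miR-137-3p. miR-128-3p, which had a value on both arrays, held 47.6%. The median over 1674 distinct mature mouse sequences was 52.2%, with an interquartile range from 45.5% to 60.0%. With 4 sequences this is a description, and the part of base composition in the readings was not tested.

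The 4 miRNAs with a sequence come from 6 hairpin genes on the GRCm38.p6 assembly. miR-9-5p and miR-9-3p are cut from the same hairpins, of which there are 3. Mir9-1 lies at chr3:88215598-88215686 inside the long non-coding RNA gene Gm3764. Mir9-2 lies at chr13:83738814-83738885 inside the non-coding gene C130071C03Rik, and Mir9-3 lies at chr7:79505264-79505353 inside the non-coding gene Mir9-3hg. The hairpins matched at 71.1% to 78.9% of aligned columns between copies, with gaps counted as mismatches. As annotated, Mir9-1, Mir9-2 and Mir9-3 are 89, 72 and 90 bases long, so gaps lower the shares that involve Mir9-2. Between Mir9-1 and Mir9-2, 70 of 89 columns matched. Both mature arms were identical in all 3 hairpins. Mir137 lies at chr3:118433857-118433929, inside no other gene of that annotation. miR-128-3p comes with the same mature sequence from Mir128-1 (chr1:128202361-128202430), inside the protein-coding gene R3hdm1, and Mir128-2 (chr9:112118636-112118711), inside the protein-coding gene Arpp21. These 2 hairpins, of 70 and 76 bases, matched at 71.4% of aligned columns, with gaps again counted as mismatches. A reading of miR-9 or miR-128-3p therefore sums over the copies, and no reading says which gene it came from.

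Of all 739 features, 525 had an intensity in NOX1-deficient cells (29.0% null) and 546 in WT cells (26.1% null). Of the 5 neuronal miRNAs, 2 had an intensity in NOX1-deficient cells and 1 in WT cells. Those without a value on either array, listed as null, were miR-9-5p (MIMAT0000142), miR-9-3p (MIMAT0000143) and miR-137-3p (MIMAT0000149). The table does not say whether a null stands for a signal too low to detect or for a spot left out for another reason, so it is not read here as absence of the miRNA. Over all features, 18.9% were null on both arrays, against 3 of these 5. The 2 listed values of NOX1-deficient cells summed to 3.78 units of 112103 on that array, and the 1 listed value of WT cells was 2.23 units of 114672. Intensities are linear and in arbitrary units, and because probes differ in affinity and labelling they do not rank miRNAs by abundance.

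**Figure D1:**
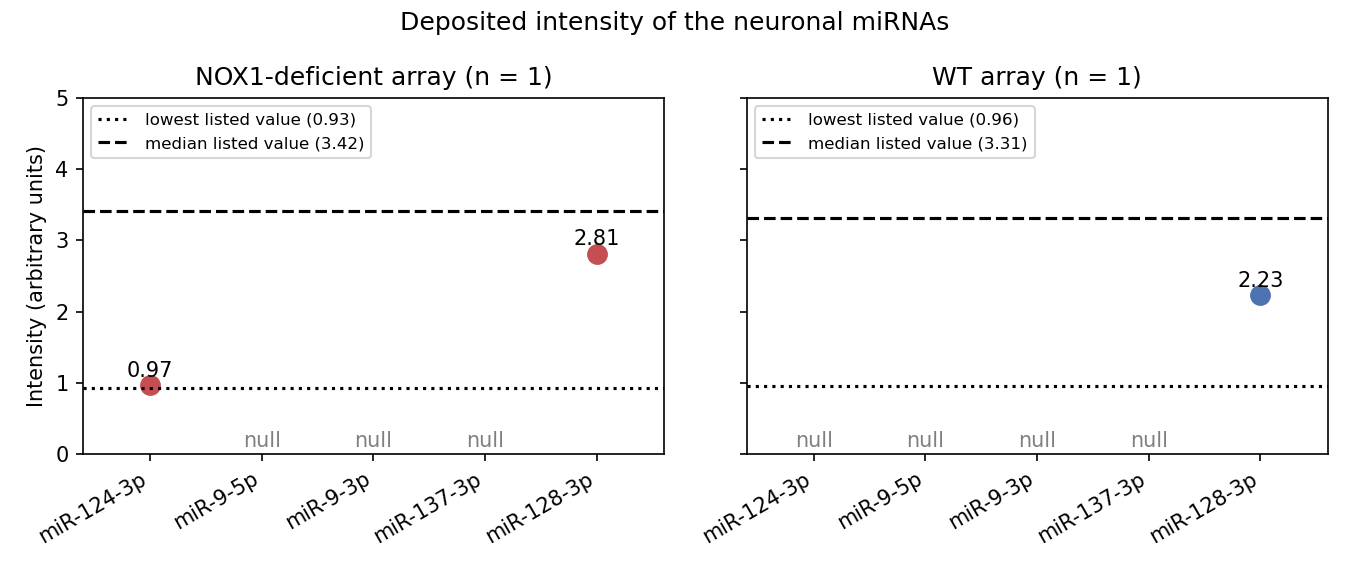
Deposited intensity (arbitrary units) of the 5 neuronal miRNAs on the NOX1-deficient array (left) and the WT array (right), 1 array each, with the lowest and the median listed value of each array as lines. miR-128-3p lies below the median on both arrays at 2.81 and 2.23 units, miR-124-3p lies next to the lowest listed value at 0.97 units on the NOX1-deficient array, and the other entries are null.

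miR-124-3p (MIMAT0000134) read 0.97 units in NOX1-deficient cells and was null in WT cells. The lowest value listed on the NOX1-deficient array was 0.93 units, so miR-124-3p stood 1.04 times above it. Of the 525 features listed there, 5 were dimmer. A feature listed on the NOX1-deficient array and null on the WT array was common, at 7.17% of all features, and the reverse held for 10.0%. Among the 53 features of the first kind, miR-124-3p was among the dimmest, with 3 below it and 49 above it. If its null in WT cells stood for the lowest value listed there, 0.96 units, the ratio of NOX1-deficient to WT would be 1.01. No fold change is given for miR-124-3p, and the reading does not separate the genotypes.

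**Figure D2:**
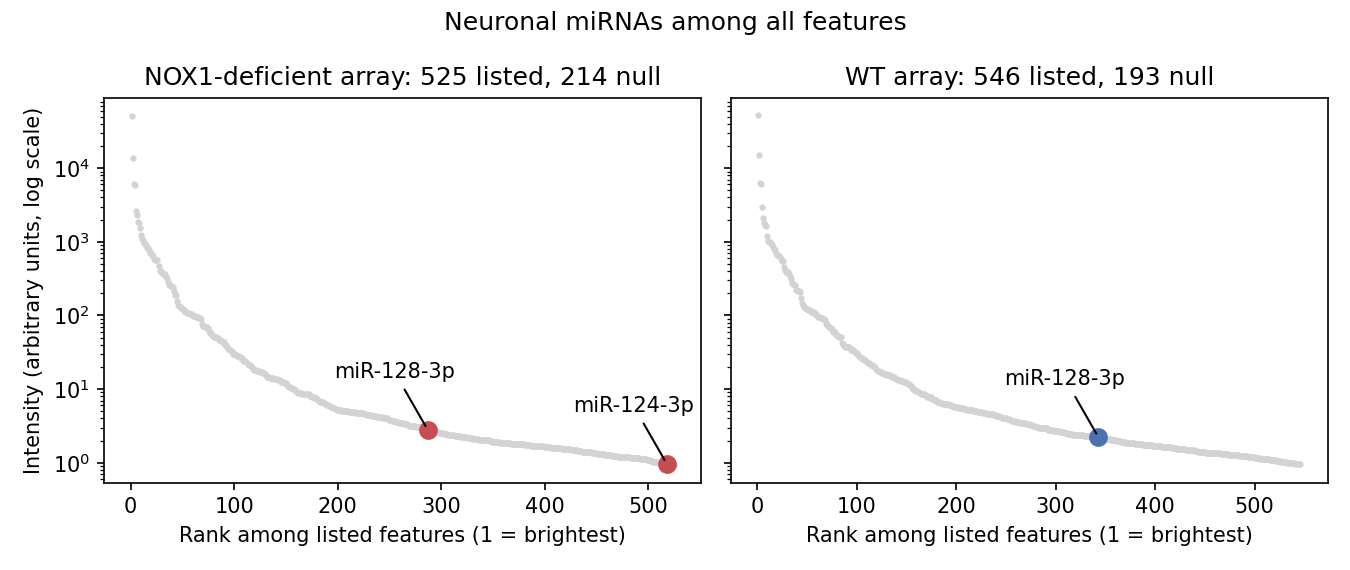
Intensity (arbitrary units, log scale) of every listed feature against its rank from the brightest, on the NOX1-deficient array (left) and the WT array (right). miR-128-3p sits at rank 287 of 525 and rank 343 of 546, and miR-124-3p sits at rank 518 on the NOX1-deficient array.

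How often a feature had a value on an array and none on the other differed with its intensity. Of features below 1 unit in NOX1-deficient cells, where miR-124-3p lay, 9 of 13 (69.2%) were null in WT cells. Of features from 2 to below 3 units in NOX1-deficient cells, where miR-128-3p lay, 4 of 64 (6.25%) were null in WT cells. The same was seen in the other direction, with 8 of 12 (66.7%) WT values below 1 unit and 3 of 77 (3.90%) WT values from 2 to below 3 units null in NOX1-deficient cells. From 3 units up, 0 of 282 features listed in NOX1-deficient cells and 0 of 284 listed in WT cells were null on the other array. Both miRNAs were themselves counted in the classes where they lay. The reading of miR-124-3p thus lay in the class where most features had no value on the other array, and that of miR-128-3p in a class where few did.

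**Figure D3:**
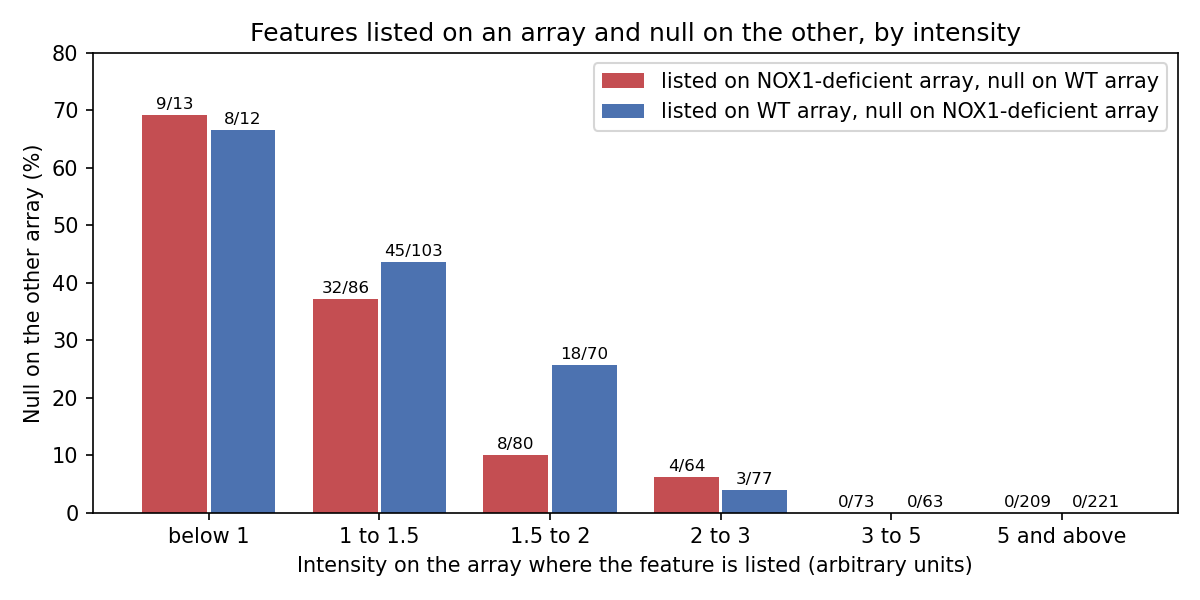
Share of features (%) listed on an array and null on the other, by intensity class (arbitrary units), for values of the NOX1-deficient array and of the WT array, with the counts above the bars. The share is 69.2% and 66.7% below 1 unit, where the NOX1-deficient reading of miR-124-3p lies, and 6.25% and 3.90% from 2 to below 3 units, where both readings of miR-128-3p lie. Both miRNAs are themselves counted in these classes.

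miR-128-3p (MIMAT0000140) was the only one of the 5 with a value on both arrays, against 63.9% of all features. It read 2.81 units in NOX1-deficient cells and 2.23 units in WT cells. These were 3.02 times the lowest value listed on the NOX1-deficient array and 2.32 times that of the WT array. They were also 0.82 and 0.67 times the medians of the listed values, 3.42 and 3.31 units. Among the listed features miR-128-3p lay at percentile 45.3 in NOX1-deficient cells and percentile 37.0 in WT cells, below the middle on both arrays. Among all 739 features, with nulls ranked lowest, it lay at percentiles 61.2 and 53.5, above the middle on both. By its mean over both arrays, 2.50 units, it ranked 300 of the 472 features listed on both.

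The reading of miR-128-3p was 1.26-fold higher in NOX1-deficient cells, a log2 difference of 0.33, with 1 array a genotype and no test. It reached neither a 2-fold nor a 1.5-fold difference. Of the 472 features, 1.91% differed by 2-fold or more, 0.212% upward and 1.69% downward in NOX1-deficient cells. At 1.5-fold these shares were 11.2% in all, 4.03% upward and 7.2% downward. Among the 77 features with a mean intensity from 2 to 3 units, the log2 differences had a median of -0.17 and an SD across features of 0.52, with 32 features above 0 and 45 below. Counting miR-128-3p itself, 16 of the 77 (20.8%) had a log2 difference at or above its value, and 46 (59.7%) differed at least as much in either direction. That share in either direction was taken from 0. Also taken from 0, the difference of miR-128-3p was smaller than the SD of the differences between these 2 arrays at its brightness. The median of those differences was below 0, so miR-128-3p lay farther from that median than from 0. The 2 features nearest to miR-128-3p on the log2 scale of both arrays read 2.76 and 2.79 units in NOX1-deficient cells and 2.36 and 2.44 units in WT cells. Their log2 differences were 0.23 and 0.19, and closeness to that of miR-128-3p follows from choosing them by both readings. With 2 arrays this likeness is one of level and not of pattern.

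**Figure D4:**
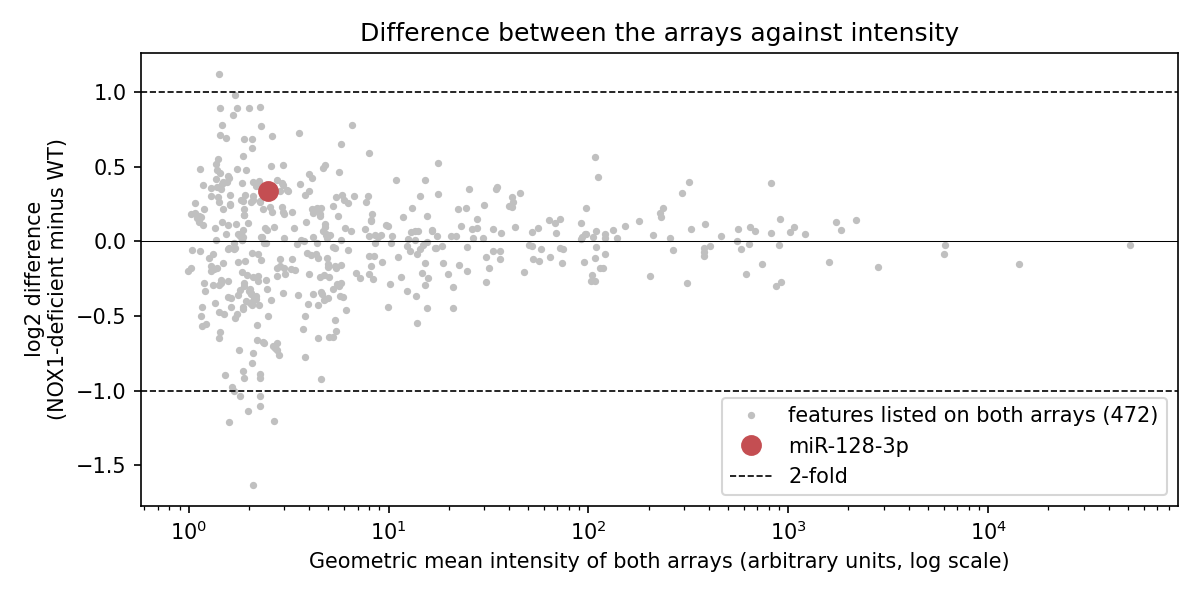
log2 difference, NOX1-deficient minus WT, against the geometric mean intensity of both arrays (arbitrary units, log scale) for the 472 features listed on both. miR-128-3p lies at 0.33, inside the 2-fold lines and within the wide scatter of features of 2 to 3 units.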

How the data were processed

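Per the labels' protocols, RNA came from the miRNeasy mini kit and carried the dye Hy5 (miRCURY labelling kit). Each feature has 1 deposited intensity on each array, taken as linear from the values. How arrays were scanned, background-corrected and normalized, the detection limit and the number of spots are not stated in the labels or the table, so the error of an intensity is unknown, and the number of arrays limits the precision. log2 differences, NOX1-deficient minus WT, were computed from the deposited intensities with no pseudocount, for features listed on both arrays, with 2-fold as the threshold. The calculation was run on simulated data with planted differences and noise smaller than the spread between these arrays. That run checks the arithmetic and the threshold, and not the precision of the readings.

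The 5 members and all lists were chosen with earlier results of these data known. Features were to be named by a fixed rule: the members, other arms of their hairpins, features with the same seed, the 2 nearest in level, and extremes of other lists. Features carry miRBase accessions that no table used here pairs with names. Lists of neuron and glia, smooth muscle and other cell type miRNAs, fixed by name, were therefore not evaluated, and the labelled cell type was not checked against markers. Neighbours in level are given by value alone. The tools were pandas 2.3.3, numpy 2.4.6, statsmodels 0.14.6 and matplotlib 3.10.9 under Python 3.11.15.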

Additional observations from a re-analysis of the deposited data

How the results depend on the processing

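The log2 difference of miR-128-3p, 0.33, kept its sign under every alternative run, although only a change of normalization could have reversed it. It was 0.43 with median centring, 0.45 with quantile normalization and 0.39 with a loess curve of span 0.4. Adding the same number to both intensities can change the size of the difference but not its sign. The difference was 0.24 with log2(intensity + 1) and 0.016 with log2(intensity + 50), which shrinks any ratio at this brightness. Setting nulls to the lowest listed value had to leave it at 0.33, because miR-128-3p had a value on both arrays. Median centring subtracted -0.10, the log2 difference between the array medians over the 472 features listed on both arrays, although the differences of those features had a median of 0.004. Past 2-fold, 1 feature was higher and 8 were lower in NOX1-deficient cells, and these counts became 19 and 34 at 1.5-fold and 0 and 0 at or above the median brightness. They became 2 and 5 with median centring or the loess curve, 2 and 6 with quantile normalization, and 5 and 12 where nulls took the lowest listed value. Ranked among all features with nulls lowest, miR-128-3p moved from percentile 45.3 to 61.2 in NOX1-deficient cells and from 37.0 to 53.5 in WT cells, and miR-124-3p from 0.952 to 29.6 in NOX1-deficient cells, since nulls then count as dimmer. The alternatives for the list of neuron and glia miRNAs were not run, as its features are unnamed. No paired analysis was possible because there is a single array of each genotype, so no replicate could be left out either.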
